A study of Mus musculus with 6 samples.

Results

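The genes described here are 35 genes of antigen presentation by major histocompatibility complex (MHC) molecules, taken by symbol from the 55385 genes in each file. They comprise 22 genes of the class I pathway, 12 of the class II pathway and Cd1d1, which encodes a lipid-presenting molecule related to class I. They were picked by gene symbol, with no cut on a measured value, although earlier results of these data were known when the list was made. All 35 were expressed highly enough to be tested.

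RNA was sequenced from mammary tumors of female NeuT/ATTAC mice, with 3 control and 3 DMHCA libraries. In these mice the MMTV promoter, active mainly in mammary epithelium, drives activated rat ErbB2, and the fat-cell promoter FABP4 drives a caspase-8 fusion activated by the dimerizer AP20187. Injections of 0.4 mg/kg AP20187 began at 6 weeks, and the treated group also ate DMHCA, a steroidal agonist of the liver X receptor (LXR), as 0.05% of the diet (100 mg/kg) beginning at 8 weeks. The question was which transcripts differ between the tumors of the treated and the control mice. The control label can be read as AP20187 with vehicle or as vehicle alone, and the labels call the tissue fibrotic mammary gland, so the study's own account of tumors after AP20187 in both groups was followed.

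Class I molecules are carried by nearly all nucleated cells and show CD8 T cells peptides made in the cytosol. The proteasome cuts the proteins, the transporter TAP carries the peptides into the endoplasmic reticulum, and a loading complex fits them to a heavy chain paired with beta-2 microglobulin. Class II molecules are carried mainly by macrophages, dendritic cells and B cells, and show CD4 T cells peptides made in endosomes. There the invariant chain holds the groove until proteases and the H2-DM editor exchange its remnant for a peptide. Transcription of the class II genes depends on the coactivator CIITA, and that of class I genes is raised by the related NLRC5.

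The rounded expected counts summed to between 46358654 and 63420620 per library. DMHCA libraries 1 and 3 were nearly alike, with a biological coefficient of variation, the variation beyond sampling, of 0.0327, against 0.376 to 0.579 in the other pairs of a group. They were therefore summed and counted as 1 sample, called DMHCA 1+3, which leaves 3 control samples and 2 DMHCA samples. Values below are counts normalized by the TMM method to the mean library size, fold changes are DMHCA over control, and p-values come from edgeR's quasi-likelihood test over 19427 genes. Control library 3 stood apart in leukocyte genes: the leukocyte gene Ptprc had 72.8 TPM (a level per transcript length, scaled to the same sum in each library) there and 7.77 to 21 TPM in the other controls. No gene of the 19427 passed an adjusted p under 0.05 (0%), so an unadjusted p under 0.05 is used below only to describe the list. At that level 793 genes (4.08%) were lower and 685 (3.53%) were higher with DMHCA.

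All 12 class II pathway genes had a lower fitted level with DMHCA, 11 of them at an unadjusted p under 0.05 and 0 at an adjusted p under 0.05. Of the 22 class I pathway genes, 0 were at an unadjusted p under 0.05 in either direction. The median log2 fold change was -1.63 over the class II genes, 0.06 over the class I genes and -0.03 over all genes tested. The class I median was 0.56 without control library 3, 0.85 without DMHCA library 2 and -0.23 without control library 2. Control and DMHCA samples did not overlap, with DMHCA lower, for 10 of 12 class II genes and 3 of 22 class I genes, against 12.2% of all genes. None of the 35 genes lay higher without overlap, against 13.8% of all genes. Without control library 3, the class II median was -1.15, and 7 of its 12 genes were lower at an unadjusted p under 0.05, against 3.27% of all genes. These 7 were H2-Aa, H2-Ab1, H2-Eb1, H2-DMb1, H2-DMb2, H2-Ob and Cd74. Without DMHCA library 2 the class II median was -1.53. That leaves 1 DMHCA sample, which is assumed to vary like the controls, and 3 class II genes were at that level, against 1.48% of all genes. In tumor RNA, fewer cells that carry a transcript and less of it per cell cannot be told apart.

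**Figure D1:**
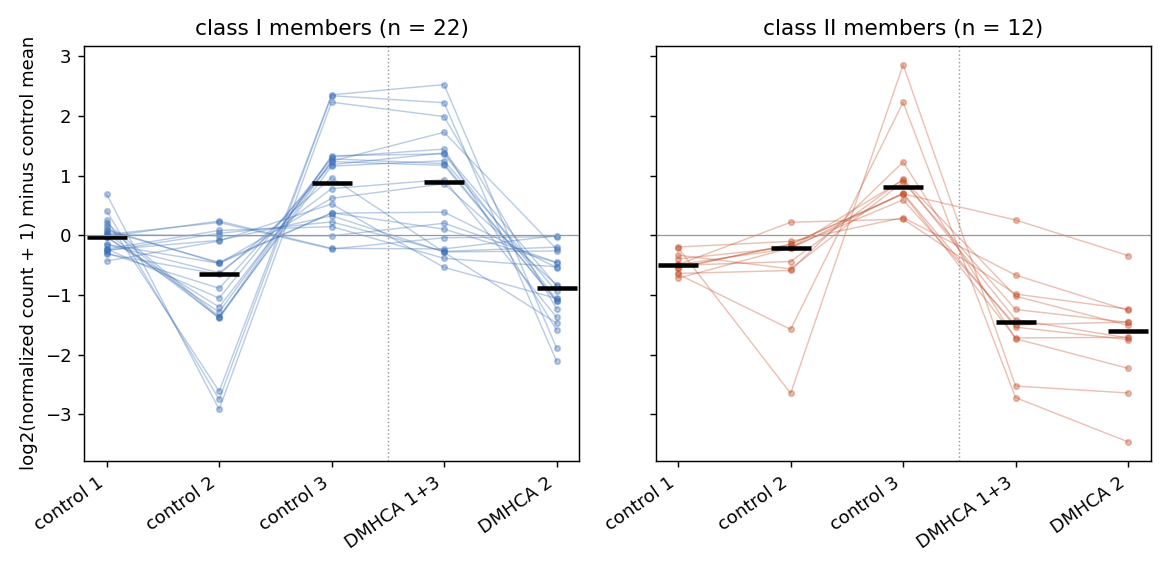
Each line joins the values of 1 gene across the 5 samples, as log2(normalized count + 1) minus the control mean, for the class I genes (left) and the class II genes (right), and the black bars are medians over genes. The class II medians were -1.46 and -1.61 in the DMHCA samples and -0.50 or more in every control, while the class I medians were 0.90 in DMHCA 1+3 and -0.89 in DMHCA 2.

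The transcription start regions of these genes are shown to set short DNA elements of class I and class II promoters side by side. A RefSeq window on GRCm38.p6, 250 bases before the annotated start and 50 after it, was found for 28 of the 35 genes. The stretches below run from 180 to 21 bases before the start, 5′ to 3′. Capitals mark the Y box core TGATTGG, bound by NF-Y, the X box stretch AACNGATG, where RFX binds, the kB site GGGATTCCC of the NF-kB family, and the interferon-stimulated response element (ISRE) core GAAANNGAA, each searched on both strands. The 5 class II genes shown hold the Y box core in this stretch. They were chosen for that and for a lower level in both DMHCA samples than in any control. H2-D1 and B2m are given as examples of class I. They do not represent its 19 windows, of which 4 hold the kB site and 5 the ISRE core. H2-DMa and Ctss also have windows and lay lower without overlap, but their windows lack the Y box core and are not shown.
H2-Aa, chr17:34287844-34288003, minus strand: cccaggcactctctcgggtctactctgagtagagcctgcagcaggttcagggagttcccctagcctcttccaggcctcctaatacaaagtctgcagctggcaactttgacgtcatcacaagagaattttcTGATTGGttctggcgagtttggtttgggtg
H2-Eb1, chr17:34305687-34305846, plus strand: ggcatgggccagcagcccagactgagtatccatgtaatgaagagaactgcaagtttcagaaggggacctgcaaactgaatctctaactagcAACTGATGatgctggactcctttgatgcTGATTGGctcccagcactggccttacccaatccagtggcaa
H2-DMb1, chr17:34153011-34153170, plus strand: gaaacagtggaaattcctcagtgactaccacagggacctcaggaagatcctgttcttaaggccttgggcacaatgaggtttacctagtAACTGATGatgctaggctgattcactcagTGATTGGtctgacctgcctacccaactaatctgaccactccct
H2-DMb2, chr17:34145069-34145228, plus strand: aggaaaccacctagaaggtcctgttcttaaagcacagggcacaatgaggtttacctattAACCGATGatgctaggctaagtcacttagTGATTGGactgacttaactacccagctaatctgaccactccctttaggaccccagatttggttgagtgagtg
H2-Ob, chr17:34238725-34238884, plus strand: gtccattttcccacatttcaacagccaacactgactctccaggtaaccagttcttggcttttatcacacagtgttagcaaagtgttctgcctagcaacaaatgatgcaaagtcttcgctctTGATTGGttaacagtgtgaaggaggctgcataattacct
H2-D1, chr17:35262914-35263073, plus strand: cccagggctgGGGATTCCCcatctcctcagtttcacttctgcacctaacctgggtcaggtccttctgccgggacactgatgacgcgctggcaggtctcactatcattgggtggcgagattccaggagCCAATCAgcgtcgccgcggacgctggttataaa
B2m, chr2:122147507-122147666, plus strand: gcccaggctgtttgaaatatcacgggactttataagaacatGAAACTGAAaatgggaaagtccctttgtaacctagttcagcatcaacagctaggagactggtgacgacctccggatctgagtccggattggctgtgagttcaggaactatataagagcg
The marked elements did not overlap each other in these stretches. The Y box core was in the windows of 6 of 9 class II genes and 9 of 19 class I genes, against 9% of all 27025 genes with a window. Tap1 and Psmb9, on opposite strands with overlapping windows, share the same match, which is counted for both. The X box stretch was in 4 class II windows (Ctss, H2-DMb1, H2-DMb2 and H2-Eb1) and 0 class I windows, against 2.67% of genes. The kB site was in 4 class I windows (H2-D1, H2-K1, H2-Q6 and H2-Q7) and 0 class II windows, against 0.414% of genes. The ISRE core was in 5 class I windows and 1 class II window, against 9.76% of genes, and the interferon element GAS (TTCNNNGAA) in 2 and 1, against 9.55%. The DR4 element, the repeat that LXR binds, was in 0 of these windows and in 0.0962% of genes. A match of letters is a description of the window and no evidence of binding. A window without a match may still hold a variant of the element.

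The class II chains form the peptide-binding dimers. H2-Aa, the alpha chain of the I-A molecule (ENSMUSG00000036594, chr17:34282744-34287823 of GRCm38), was counted 23118, 30289 and 54430 times after normalization in control samples 1, 2 and 3, and 10226 and 10296 times in DMHCA 1+3 and DMHCA 2. Its means were 35946 ± 16404 (SD, n = 3) and 10261 ± 49.8 (SD, n = 2), a 3.5-fold lower level on the fitted scale (log2 fold change -1.81, standard error 0.45, unadjusted p = 0.0058, Benjamini-Hochberg adjusted p = 0.644 in edgeR). Every control lay above both DMHCA samples, and the DMHCA samples were nearly equal. H2-Ab1, its beta chain partner, had 16764, 20199 and 38424 normalized counts in the controls and 8099 and 7008 in the DMHCA samples. Its log2 fold change was -1.73 (standard error 0.44, unadjusted p = 0.0067), and control library 3 was again the highest. The ratio of H2-Ab1 to H2-Aa in TPM stayed between 0.614 and 0.733 in the 5 samples. H2-Eb1, the beta chain of I-E, was expressed far less, at 225, 233 and 823 normalized counts in the controls and 105 and 74.1 in the DMHCA samples. Its log2 fold change was -2.25 (standard error 0.77, unadjusted p = 0.024), and the groups did not overlap. Leaving out control library 3, its highest sample, gave -1.35 (unadjusted p = 0.042).

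Cd74, the invariant chain that guides class II dimers to endosomes, had the highest level of the 12 genes, with a mean of 627 TPM over the 5 samples. Control libraries held 33844, 38809 and 67220 normalized counts of Cd74, and the DMHCA samples 15724 and 16281. This was a log2 fold change of -1.54 (standard error 0.41, unadjusted p = 0.0081), with no overlap between the groups. Ciita, the class II coactivator, had 946, 806 and 2216 normalized counts in the controls and 503 and 433 in the DMHCA samples. Its log2 fold change was -1.50 (standard error 0.53, unadjusted p = 0.027), and -0.91 without control library 3 (unadjusted p = 0.055). Controls 1 and 2 therefore still lay above both DMHCA samples, by a smaller margin. The exons of Ciita overlap those of Dexi on the opposite strand, and it is not stated whether strand was used in counting.

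H2-DM exchanges peptides in the class II groove, and H2-O restrains it, mainly in B cells. H2-DMb1 had 1833, 2998 and 3109 normalized counts in the controls and 1302 and 1094 in the DMHCA samples (log2 fold change -1.14, standard error 0.33, unadjusted p = 0.012). H2-DMb2, its near copy, had 1561, 2219 and 4885 in the controls and 965 and 779 in the DMHCA samples (log2 fold change -1.73, standard error 0.53, unadjusted p = 0.015). Without control library 3 the value of H2-DMb2 was -1.12 (unadjusted p = 0.018). Both beta chain genes lay lower without overlap, but 22.7% and 24.8% of their 50-base transcript windows also occur in another gene, mostly in each other, so the division of reads between them is uncertain. H2-DMa, the alpha chain, had 955, 998 and 2599 normalized counts in the controls and 667 and 475 in the DMHCA samples (log2 fold change -1.41, unadjusted p = 0.039). Its exons overlap those of Brd2 on the opposite strand, and leaving out control library 3 gave a log2 fold change of -0.78 (unadjusted p = 0.088).

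The largest fold changes of the list were those of the H2-O chains, and they rested most on control library 3. H2-Ob had 439, 231 and 3236 normalized counts in the controls and 104 and 61.9 in the DMHCA samples, a log2 fold change of -3.96 (standard error 1.28, unadjusted p = 0.019). Without control library 3 it was -2.01 (unadjusted p = 0.015), and the groups did not overlap. H2-Oa had 109, 19.3 and 920 normalized counts in the controls and 21.1 and 19.4 in the DMHCA samples. Control library 2 thus lay at the level of the DMHCA samples. The log2 fold change of H2-Oa was -4.10 (standard error 1.63, unadjusted p = 0.043), and -1.66 without control library 3 (unadjusted p = 0.11). Fitting edgeR to the 6 libraries, with the replicate number as a block, gave -2.59 for H2-Oa (unadjusted p = 0.086). B cell markers had the same order among controls, library 3 above 1 above 2, as H2-Oa and H2-Ob: their summed level was 34.5, 1.48 and 284 TPM in control libraries 1, 2 and 3 and 2.91 and 2.52 TPM in the DMHCA samples. Control library 2 lay below both DMHCA samples in this sum but above both in H2-Ob, and the part of B cells in the H2-O result was not tested.

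The endosomal enzymes of the list gave different values. Ctss, cathepsin S, which trims the invariant chain, had 20209, 21582 and 28436 normalized counts in the controls and 14586 and 9676 in the DMHCA samples (log2 fold change -0.95, standard error 0.34, unadjusted p = 0.028). The groups did not overlap, and leaving out control library 3 gave a log2 fold change of -0.79 (unadjusted p = 0.067). Ifi30, a thiol reductase that unfolds antigens, had 3107, 4102 and 7352 normalized counts in the controls and 5428 and 3591 in the DMHCA samples. Its samples overlapped, and the fitted value of -0.11 on the log2 scale (standard error 0.42) became 0.32 when control library 3 was left out. Its exons overlap an antisense transcript, 6330537M06Rik.

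Other tools gave some of these genes an adjusted p under 0.05. DESeq2 on the same 5 samples did so for H2-Aa (adjusted p = 0.031), H2-Ab1 (adjusted p = 0.048) and H2-Ob (adjusted p = 0.017), against 0.967% of genes called lower in that fit. With the 6 libraries as separate samples, DESeq2 called 9 class II genes lower, against 2.68% of genes, and 0 class I genes. The 3 class II genes not called there were H2-DMa, Ctss and Ifi30. Every fit on the 6 libraries counts the nearly alike DMHCA libraries 1 and 3 as independent. The share of all genes lower at an unadjusted p under 0.05 also varied with the fit. It was 6.21% in DESeq2 and 8.03% in edgeR on the 6 libraries, 5.1% in edgeR with no filter on low counts, 3.37% without control library 1 and 1.72% with limma on TPM. In these fits 0 to 2 of the 22 class I genes and 7 to 11 of the 12 class II genes were lower at that level. With the replicate number as a block in edgeR on the 6 libraries, 8.08% of all genes were lower and 9.1% higher, and 1 of 22 class I genes lay on each side.

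**Figure D2:**
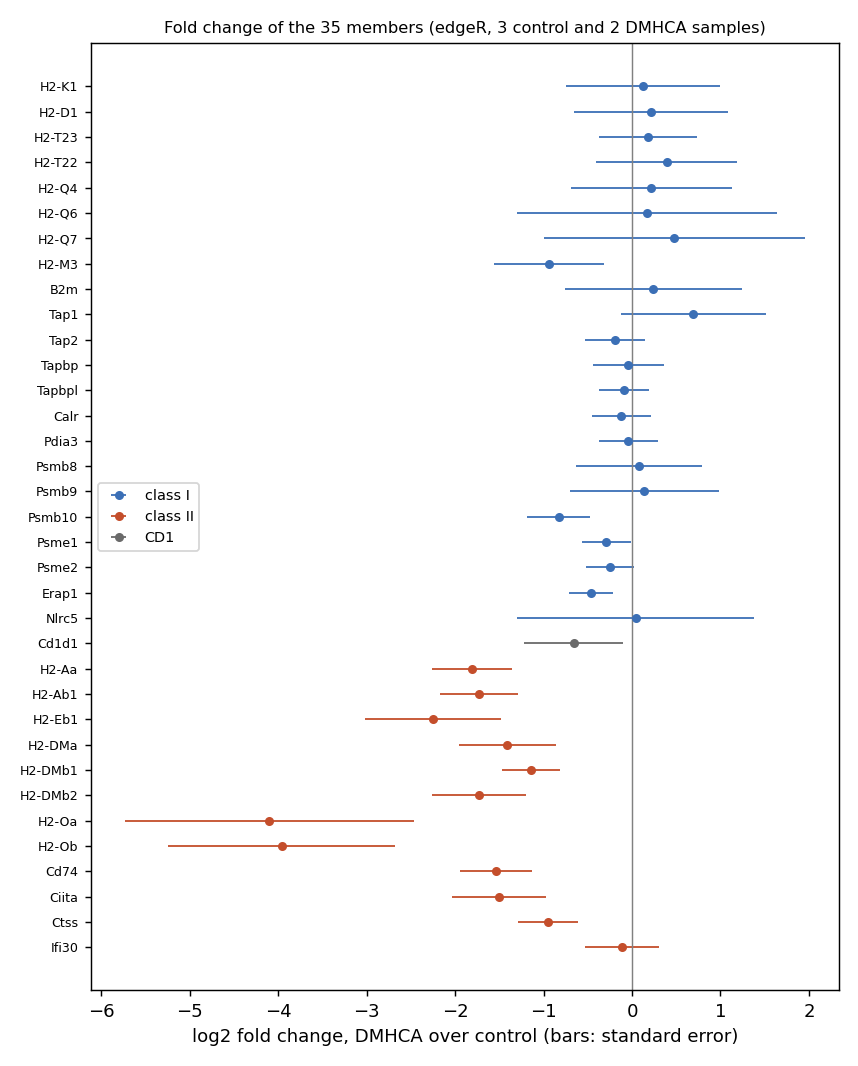
Points are log2 fold changes of the 35 genes, DMHCA over control, from edgeR with 3 control and 2 DMHCA samples, and bars are standard errors. The class II genes ran from -4.10 to -0.11 and the class I genes from -0.94 to 0.69.

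The class I chains differed far more between tumors of the same group than between the groups. H2-K1, a classical heavy chain (ENSMUSG00000061232, chr17:33996017-34000347), had 82211, 36594 and 197996 normalized counts in the controls and 189611 and 39142 in the DMHCA samples. H2-D1, the other classical chain, had 127727, 43151 and 247515 in the controls and 263842 and 57861 in the DMHCA samples. B2m, the light chain of every class I molecule, had 95390, 39867 and 241319 in the controls and 264361 and 32503 in the DMHCA samples. In all 3 genes control library 3 and DMHCA 1+3 were high, and control library 2 and DMHCA 2 were low. The log2 fold change was 0.12 for H2-K1 (standard error 0.87), 0.21 for H2-D1 (standard error 0.87) and 0.24 for B2m. A difference of the size of these standard errors was not detectable at this spread. Leaving out control library 3 gave 0.94, 0.91 and 1.13 for H2-K1, H2-D1 and B2m, leaving out DMHCA library 2 gave 0.89, 0.97 and 1.12, and leaving out control library 2 gave -0.30, -0.22 and -0.18. The sign of these values thus depended on which tumor was left out. No class I gene reached an unadjusted p under 0.05 in these 3 fits.

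The same order of samples, control library 3 and DMHCA 1+3 above the other 3, was seen in 15 of 22 class I genes and in 1 of 12 class II genes (Ifi30), against 13.4% of all genes. The order was noted in these data and is given as a description. The 7 class I genes without it were Tapbpl, Calr, Pdia3, Psmb10, Psme1, Psme2 and Erap1. Among the nonclassical heavy chains, H2-Q4, H2-Q6, H2-Q7, H2-T22, H2-T23 and H2-M3, log2 fold changes ran from -0.94 (H2-M3, -0.29 without control library 3) to 0.48 (H2-Q7). The widest spread was that of H2-Q7, with 750 normalized counts in control library 2 and 26424 in DMHCA 1+3, and its log2 fold change was 2.14 without control library 3. Between 13.6% and 34.5% of the 50-base transcript windows of the H2-Q and H2-T genes occur in another gene, so reads may be divided among them. MHC genes also vary between mouse strains, and the effect of the tumors' strain on counts against the reference was not tested.

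Nlrc5, the class I coactivator, followed the class I chains rather than Ciita. It had 1904, 156 and 5556 normalized counts in the controls and 4701 and 505 in the DMHCA samples (log2 fold change 0.04, standard error 1.34), and leaving out control library 3, DMHCA library 2 or control library 2 gave 1.33, 0.94 and -0.52, so its sign turned with the tumor left out. Control library 2 and DMHCA 2 were again the lowest samples of their groups, which also held for Ciita. Ciita differed in that both of its DMHCA samples lay below every control.

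The transporter and loading genes differed in their spread between tumors. Tap1, which with Tap2 forms the peptide pump, had 6130, 2101 and 13051 normalized counts in the controls and 18260 and 4702 in the DMHCA samples (log2 fold change 0.69, standard error 0.82, Benjamini-Hochberg adjusted p = 0.806 in edgeR). Leaving out control library 3, DMHCA library 2 or control library 2 gave 1.48, 1.41 and 0.26 for Tap1. A fit of edgeR to the 6 libraries with the replicate number as a block gave 1.06 (unadjusted p = 0.0093, adjusted p = 0.21). In that fit 9.1% of all genes were higher at an unadjusted p under 0.05. It counts the nearly alike DMHCA libraries 1 and 3 as independent, and the numbers were not taken to pair the samples. Tap2 had 8322, 5767 and 10256 in the controls and 8480 and 5749 in the DMHCA samples (log2 fold change -0.19, standard error 0.34). Tap1 over Tap2 in TPM accordingly ranged from 0.319 in control library 2 to 2.09 in DMHCA 1+3. The loading genes Tapbp, Tapbpl, Calr and Pdia3 had log2 fold changes between -0.12 and -0.04.

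The immunoproteasome subunits Psmb8, Psmb9 and Psmb10 replace standard subunits and shift which peptides are cut. Psmb8 had 10390, 7488 and 19892 normalized counts in the controls and 22092 and 4474 in the DMHCA samples (log2 fold change 0.08, standard error 0.71). Psmb9 had 3288, 1857 and 9365 in the controls and 8860 and 1797 in the DMHCA samples (log2 fold change 0.14, standard error 0.84). Both followed the class I order of samples, but the exons of Psmb9 overlap those of Tap1 on the opposite strand. It is not stated whether strand was used in counting. Several other class I genes, among them Psmb8, Tap2, Nlrc5, Erap1 and Psme1, also overlap a gene on the opposite strand. Leaving out control library 3 gave 0.57 for Psmb8 and 1.05 for Psmb9, leaving out DMHCA library 2 gave 0.86 and 0.92, and leaving out control library 2 gave -0.19 and -0.25, so their sign depended on the tumor left out. Psmb10 did not: it had 3129, 3952 and 6070 in the controls and 2907 and 2027 in the DMHCA samples. Its groups did not overlap, with a log2 fold change of -0.83 (standard error 0.36, unadjusted p = 0.059), the smallest p of the class I genes, and -0.52 when control library 3 was left out. The proteasome activator genes Psme1 and Psme2 had log2 fold changes of -0.29 and -0.25, and Erap1, which trims peptides in the endoplasmic reticulum, -0.46. Psme1 and Erap1 also lay lower without overlap. Their unadjusted p-values were 0.34 and 0.11.

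Cd1d1, which shows lipids to natural killer T cells, had 1133, 1101 and 2807 normalized counts in the controls and 1457 and 662 in the DMHCA samples (log2 fold change -0.66, standard error 0.56). Its samples overlapped, and leaving out control library 3 gave -0.08. Of its 50-base windows, 19.1% are shared, mostly with Cd1d2.

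Class I and class II levels therefore parted in DMHCA 1+3. The summed level of H2-K1, H2-D1 and B2m was 6498, 1983 and 13865 TPM in the controls and 15431 and 2791 TPM in the DMHCA samples. The summed level of H2-Aa, H2-Ab1, H2-Eb1 and Cd74 was 1574, 1400 and 3163 TPM in the controls and 698 and 750 TPM in the DMHCA samples. The ratio of the first sum to the second was 4.13, 1.42 and 4.38 in the controls, 22.1 in DMHCA 1+3 and 3.72 in DMHCA 2. Only DMHCA 1+3 lay outside the range of the controls.

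Position alone did not sort the genes by their values. Of the 35 genes, 21 lie on chromosome 17 within 3.36 Mb, 13 of class I and 8 of class II. The 8 class II genes stand in 224 kb, chr17:34092340-34316674, and all had an unadjusted p under 0.05 with a lower level. Between H2-DMb1 and H2-Ob in that interval lie Psmb9, Tap1, Psmb8 and Tap2, with log2 fold changes of 0.14, 0.69, 0.08 and -0.19. Brd2, Gm15821 and CR974462.3, which belong to neither pathway, had 0.20, -0.06 and 1.20. Cd74, Ciita, Ctss and Ifi30 are on other chromosomes, and the first 3 of them were also lower at an unadjusted p under 0.05.

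**Figure D3:**
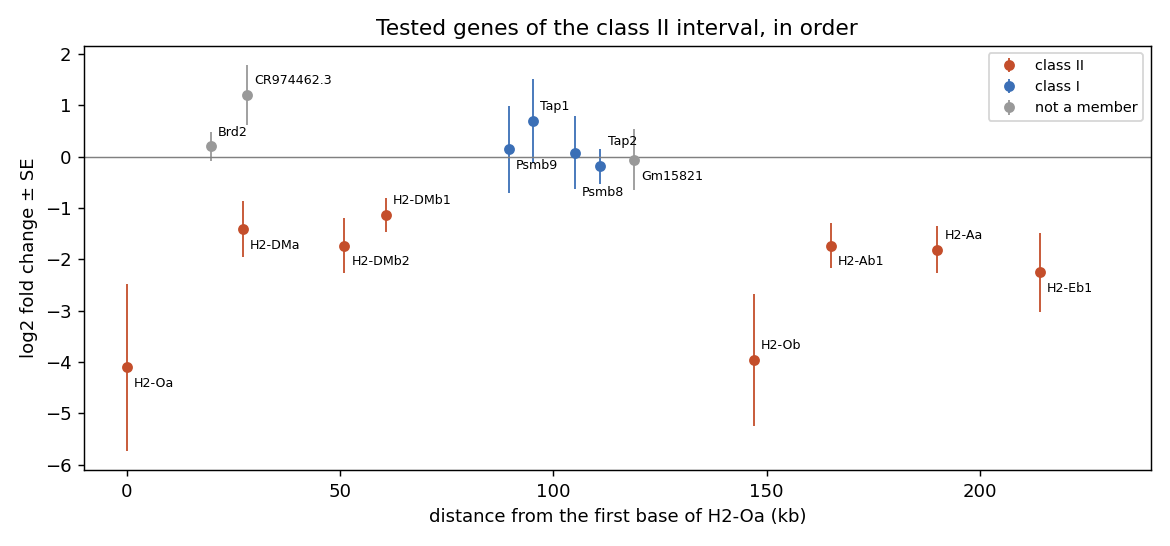
Points are log2 fold changes with standard errors of the tested genes between H2-Oa and H2-Eb1, against the distance of each gene's first base from that of H2-Oa in kb. The class I pathway genes between 89.6 and 111 kb lay between -0.19 and 0.69, and every class II gene lay at -1.14 or below.

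Other genes of the pathways gave few values past the unadjusted threshold, where 4.08% of all genes were lower and 3.53% higher. Of 12 other class I and class I-like genes, 1 was lower, H2-M2 (log2 fold change -4.53, unadjusted p = 0.03), with 888 normalized counts in control library 3 and 12.6 to 73.9 elsewhere, and -1.87 without that library (unadjusted p = 0.038). Of 12 tested genes of interferon gamma signalling, 1 was lower, the receptor gene Ifngr1 (log2 fold change -0.90, unadjusted p = 0.043). Ifng itself did not pass the filter on low counts and was not tested. It had 48 normalized counts in control library 3 and 4.86 or fewer elsewhere. Of 4 costimulation genes, 1 was lower, Cd83 (log2 fold change -1.88, unadjusted p = 0.045), with 3612 normalized counts in control library 3. Without control library 3 the log2 fold changes were -0.55 for Ifngr1 (unadjusted p = 0.095) and -0.96 for Cd83 (unadjusted p = 0.11). None was higher in these 3 lists. None of 7 genes passed in either direction for the RFX, CREB and NF-Y factors, which bind class II promoters, where Rfxank (0.53) and Nfya (0.55) had the smallest p. The same held for 7 standard proteasome genes (Psme3 0.56, Psma3 -0.48), 7 other chaperones (Pdia6 -0.64, Hsp90b1 -0.48) and 7 other endosomal genes (Ctsl -0.61, March1 -0.80), all as log2 fold changes.

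Markers of the cells that carry class II were read beside these values. The summed level of 8 macrophage markers was 774 to 947 TPM in the controls and 658 to 827 TPM in the DMHCA samples, with 0 of 8 at an unadjusted p under 0.05 and a median log2 fold change of -0.16. H2-Aa over the macrophage gene C1qa in TPM was 1.61, 1.61 and 3.14 in the controls and 0.718 and 1.01 in the DMHCA samples. H2-Aa over Csf1r, the receptor of a macrophage growth factor, was 19.9, 26 and 32.7 in the controls and 7.57 and 10.7 in the DMHCA samples. Neither of these ratios overlapped between the groups. The general leukocyte gene Ptprc had 21, 7.77 and 72.8 TPM in the controls and 11.4 and 11.5 TPM in the DMHCA samples, a log2 fold change of -1.71 that was -0.53 without control library 3. H2-Aa over Ptprc was 25.4, 66.2 and 15.7 in the controls and 19.8 and 21.8 in the DMHCA samples, so this ratio did overlap.

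The markers of the other lists are counted as lower or higher at an unadjusted p under 0.05. Of all genes, 4.08% were lower and 3.53% higher at that level. The 8 dendritic cell markers summed to 21.5 to 106 TPM in the controls and 20 to 27.3 TPM in the DMHCA samples, and Cd209a and Itgax were lower at an unadjusted p under 0.05. The 6 B cell markers summed to 1.48 to 284 and 2.52 to 2.91 TPM, with 5 of 6 lower, and the 6 T cell markers to 1.58 to 172 and 4.34 to 8 TPM, with 1 lower. The 4 adipocyte markers summed to 9.95 to 133 and 1.51 to 3.27 TPM, with 4 of 4 lower. Mammary epithelial markers summed to 2532 to 3554 TPM in the controls and 4061 to 4385 TPM in the DMHCA samples, with 0 of 6 past the threshold. Of these 6, 4 had a lower and 2 a higher fitted level, with a median log2 fold change of -0.10. Krt8 (0.54) and Krt18 (0.40) were higher. Krt5 (-2.81) and Krt14 (-2.69) had the lowest values, which were -0.96 and -0.72 without control library 3. Fibroblast markers summed to 175 to 787 and 337 to 390 TPM (0 of 4), endothelial markers to 21.6 to 40.9 and 38.3 to 42.4 TPM (1 of 3 higher, Cdh5) and muscle markers to 285 to 508 and 120 to 438 TPM (0 of 3). Median log2 fold changes were -1.45 over the dendritic cell markers, -6.64 over the B cell markers and -3.76 over the T cell markers, and without control library 3 they were -0.55, -3.86 and -0.99. In that fit 3.27% of all genes were lower at that level. So were 0 of 8 dendritic cell, 1 of 5 tested B cell, 0 of 6 T cell and 4 of 4 adipocyte markers. The B cell marker Pax5 was at 0 TPM in DMHCA 2, no other marker was at 0 in any of the 5 samples, and the part of these cells in the class II result was not tested.

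**Figure D4:**
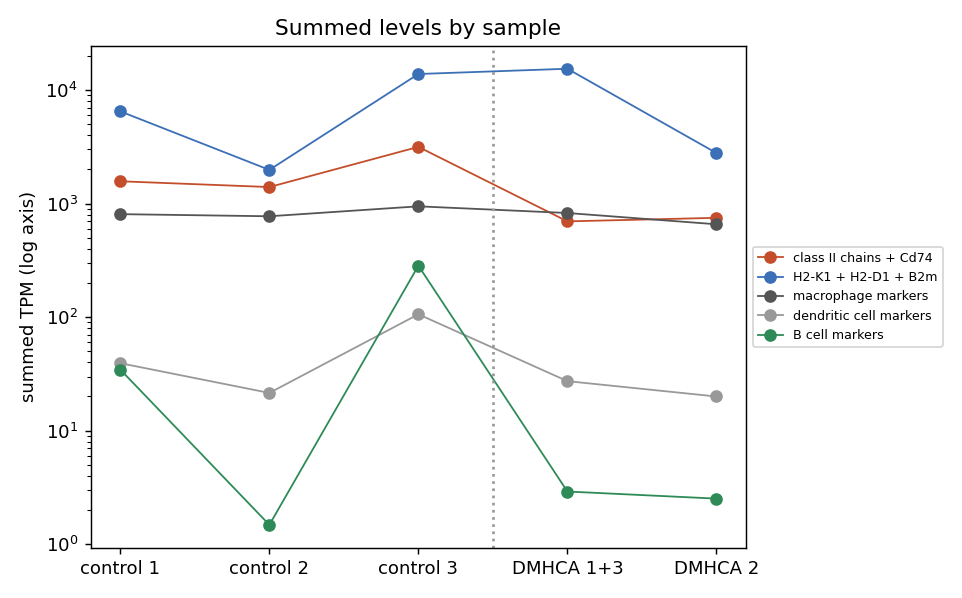
Points are summed TPM on a log axis in each sample for class II chains with Cd74, for H2-K1, H2-D1 and B2m, and for macrophage, dendritic cell and B cell markers, with lines joining the values of 1 sum. The class II sum was 1400 TPM or more in every control and 750 TPM or less in the DMHCA samples, while the macrophage sum stayed between 658 and 947 TPM.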

How the data were processed

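Tumor RNA in 3 control and 3 DMHCA libraries was analysed. The authors checked reads with FastQC 0.11.9, trimmed them with Cutadapt 2.9 and counted them with RSEM 1.3.1 on a Bowtie2 2.4.1 index of the Ensembl mm10 genome. RSEM's expected counts, which divide reads shared by similar genes, were deposited unnormalized; the share that was not whole ran from 19.6% to 23.5% by library. The TPM values, also deposited, are scaled by the authors for gene length and depth and were used to compare levels between genes. FPKM was not used. The strand setting is not given in the sources used here.

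Expected counts were rounded. A pair of libraries was merged if fewer than 10% of genes averaging 100 counts or more differed by a chi-square test at 0.05, or if its biological coefficient of variation did not reach 0.1 and every other pair exceeded it more than 5 times. DMHCA libraries 1 and 3 met the second condition (18.1% of 13380 genes differed). The group comparison used edgeR 4.0.16 under R 4.3.3 (TMM, filterByExpr with a minimum count of 10 and minimum total of 15, quasi-likelihood F-test, Benjamini-Hochberg adjustment over 19427 genes). Standard errors are the log2 fold change over the square root of F. The study describes 3 mice a group, and whether DMHCA libraries 1 and 3 come from separate mice is not known. Alternatives were DESeq2 1.42.0, limma 3.58.1 on log2(TPM + 1), other scalings and filters, and each library left out. DESeq2 was planned with its default settings. It was first run with independent filtering tuned at 0.05, was then set back to the plan, and both sets of counts are given below. The method was tested on simulated data. The members and gene lists were chosen with earlier results of these data known. All 35 members are named. Of a pathway list, the genes with an unadjusted p under 0.05 are named, or else the 2 with the smallest p. Gene coordinates are from GENCODE M21 (GRCm38), tables and plots from Python 3.11.15 with pandas 2.3.3, numpy 2.4.6 and matplotlib 3.10.9.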

Additional observations from a re-analysis of the deposited data

How the results depend on the processing

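The class II median stayed below 0 under every alternative run, between -1.86 and -1.15, and 11 of its 12 genes kept their sign in all 16 alternatives fitted to every gene, the exception being Ifi30. The class I median ran from -0.23 to 0.85, and 15 of 22 class I genes changed sign at least once. The count of all genes with an adjusted p under 0.05, 0 in edgeR, was 16 with no filter on low counts, 244 in DESeq2 on the 5 samples and 846 in DESeq2 on the 6 libraries. With DESeq2's independent filtering tuned at 0.05 instead of its default, an alternative added after the data were seen, these counts were 244 and 887, and the numbers of class II genes called, 3 and 9, were equal under both. The count of class II genes lower at an unadjusted p under 0.05, 11 in the 5-sample edgeR fit, was 7 with limma on log2(TPM + 1) and 3 to 11 with 1 library left out. The count of class I genes, 0 in that fit, was 1 in DESeq2 on the 6 libraries, 2 in edgeR on the 6 libraries, 1 with no filter and 0 to 1 with 1 library left out. Of all genes, 6.21%, 8.03% and 5.1% were lower in the first 3 of these fits, near the share of 1 or 2 in 22. With the replicate number as a block in edgeR on the 6 libraries, 10 class II genes and 1 class I gene (Psmb10) were lower and 1 class I gene was higher at an unadjusted p under 0.05 (Tap1, log2 fold change 1.06, unadjusted p = 0.0093), against 8.08% of all genes lower and 9.1% higher, and 0 of all genes passed the adjusted threshold. Same-numbered libraries correlated at -0.0468, 0.316 and 0.33 in their deviations from the group means, so the numbers were not taken to pair the samples. Differently numbered libraries reached 0.319. The median of all genes, -0.03, was -0.13 with upper-quartile scaling, 0.11 with limma on TPM, -0.18 with no filter and -0.20 in both DESeq2 fits, the last 3 over more genes. With 2 DMHCA samples, differences of the size of the class I standard errors could not be detected.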
